A study of Mus musculus with 2 samples.

Results

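Claudins and their partners build the tight junction of an epithelium, and 38 genes of the tight junction and of apicobasal polarity were examined here in mouse lung epithelial cells. The genes came from a list of symbols, and every non-control probe whose RefSeq accession mapped to a listed symbol was used. All 38 were on the array, out of 20660 genes with a symbol, and they were covered by 58 probes. The list holds 14 claudins, 7 other membrane proteins of the junction, 6 cytoplasmic plaque proteins, 5 genes of the PAR complex, 3 of the Crumbs complex and 3 of the Scribble module.

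RNA of cells labelled Mob1DKO and RNA of wild-type (WT) cells was hybridised to 1 Agilent 1-colour array each. Both labels give lung epithelial cells of C57BL/6 mice aged 10 weeks. Mob1DKO is not spelled out in the labels and is read here, from knowledge of the mouse line, as loss of Mob1a and Mob1b, which encode adaptors of the LATS kinases in the Hippo pathway. The alleles, the promoter of any Cre, any inducing agent, the number of animals behind each RNA and the way the cells were isolated are not given in the sources used here. The study's design sets the expression of these cells against each other.

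With 1 array per group there was no test, no replicate error and no p-value, and their number sets the limit of precision. The unit is a log2 level, the processed signal relative to the array's 75th percentile, which was 291 for Mob1DKO and 155 for WT. A difference is Mob1DKO minus WT. A gene was measured where its probe was well above background on at least 1 array, which held for 15099 genes. A gene was called higher or lower where it differed at least 2-fold and passed the background test on the brighter array. The technical error came from probes printed at 10 spots. The SD of a single-spot difference was 0.48 for mean levels below -2, 0.25 from -2 to 0, 0.11 from 0 to 2, 0.069 from 2 to 4 and 0.060 above 4. This error covers spot to spot variation within an array and leaves out the variation between arrays, animals and preparations. The scanner's own error of a difference was larger for bright genes, with 0.20 for Cgn where the technical SD was 0.060. For the faint Cldn9 it was 0.30, where the technical SD was 0.48.

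Markers were read for the labelled cell type and for others. All 6 general epithelial markers were measured on both arrays, with differences from -0.13 to 0.18. Of 8 endothelial markers, Cdh5, Tek, Tie1, Emcn and the endothelial claudin Cldn5 were on neither array well above background, and the same held for Ptprc, Cd52 and Laptm5 of 6 leukocyte markers. The other leukocyte markers were measured on both arrays, with Cd74 at 7.12 in Mob1DKO cells and 6.65 in WT cells, Lyz2 at 7.92 in Mob1DKO cells and 8.10 in WT cells, and Coro1a at -1.0 in Mob1DKO cells and -0.77 in WT cells; Lyz2 and Cd74 are also genes of alveolar type 2 cells. All 7 mesenchymal markers were measured, Dcn at 5.89 in Mob1DKO cells and 5.71 in WT cells among them, and 1, Lum, was called higher. All 4 mesothelial markers were measured too, Msln at 5.37 in Mob1DKO cells and 5.62 in WT cells, and none was called. Mob1b had a level of -2.98 in Mob1DKO cells and -0.98 in WT cells, a difference of -2.0. Mob1a had -2.49 in Mob1DKO cells and -2.56 in WT cells, a difference of 0.07, and the place of these probes relative to any deletion is unknown, so the Mob1a value checks nothing. The arrays also differed in sex-linked genes, with Xist 4.90-fold lower and Eif2s3y at least 29.6-fold higher in Mob1DKO cells, so the sex of the animals and the genotype cannot be told apart. Red cell genes were lower too, with 4 of 5 measured called. In RNA from mixed cells, fewer cells of a type and less RNA per cell cannot be told apart either.

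Tight junctions seal the space between neighbouring epithelial cells near their apical border. Claudins form the paracellular strands, and their mix sets which ions pass. Occludin, tricellulin and the JAM proteins share the membrane with them, while ZO proteins, cingulin and MAGI scaffolds tie the strands to actin. The PAR, Crumbs and Scribble modules place the junction between the apical and the basolateral membrane, and parts of them also act upstream of the Hippo pathway. In the alveolus, claudin 18, claudin 3 and claudin 4 are the claudins best known for the barrier.

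Most of these genes differed little between the arrays, and 1 claudin stood out. Of the 38 genes, 35 were measured, all of them on both arrays, while Cldn1, Cldn2 and Cldn6 were not well above background on either. Cldn22 was the only gene called lower, and none was called higher. Over all genes measured, 2.91% were called lower and 3.79% higher, so 1 of 35 and 0 of 35 lie near or under the background. Without scaling between the arrays, 6149 genes in all were called higher and 174 lower, against 572 and 439 with it. The median difference was 0.09 over the 35 genes and 0.02 over all measured genes, whose middle 50% ran from -0.18 to 0.22. Of the 35, 17 lay inside that range, 12 above it and 6 below it.

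**Figure D1:**
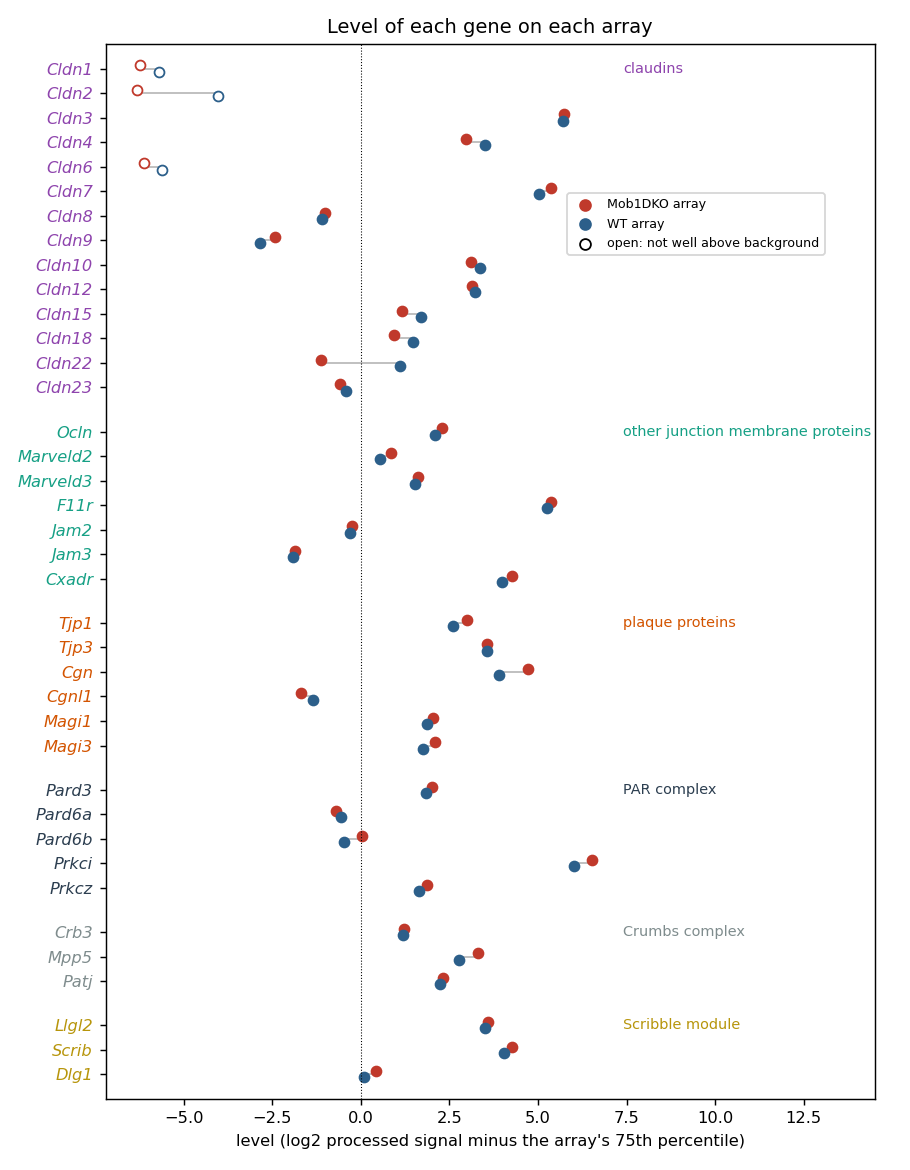
Log2 level of each of the 38 genes in Mob1DKO cells (red) and in WT cells (blue), grouped by role, with 0 at the array's 75th percentile and open circles for values not well above background. The 2 points of most genes lie close together, Cldn22 has the widest gap of the measured genes, and Cldn1, Cldn2 and Cldn6 are open on both arrays. Brightness differs between probes, so the levels of different genes are not to be ordered.

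Small differences leaned one way among the listed junction and polarity genes that are not claudins and the other way among the listed claudins. Of the 24 measured genes that are not claudins, 22 had a difference above 0, with a median of 0.19. Of the 11 measured claudins, 4 did, with a median of -0.16, or -0.12 over the 10 without Cldn22. Over all measured genes 53.3% lay above 0. Tjp3 at 0.00 and Crb3 at 0.01 are among the 22, and 20 of the 24 lay above the all-gene median of 0.02. The listed genes were chosen with earlier results of these data known. Related genes outside the list, described further below, did not all share this lean. Above 0 lay 12 of 22 further membrane and plaque genes and 13 of 17 further polarity genes. The same held for 7 of 13 claudin partners and regulators and 3 of 4 further claudins. Against the technical error, 13 of the 35 genes lay more than 2 SD above 0 and 5 more than 2 SD below it, where 19.5% and 15.9% of all measured genes did. All 5 genes below were claudins, and 1 of the 13, Cldn7, was. The scanner's own error is larger than this SD for all of the 13 except Pard6b, and for all of the 5 except Cldn22. Against 2 scanner errors, only Cgn, Prkci, Mpp5 and Pard6b stay above 0 and Cldn22, Cldn4, Cldn15 and Cldn18 below it. The scanner's error was 0.20 for F11r and Ocln, which are among the 13 with differences of 0.13 and 0.21. Whether claudins and the other genes differ beyond the variation between animals cannot be asked of 2 arrays.

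**Figure D2:**
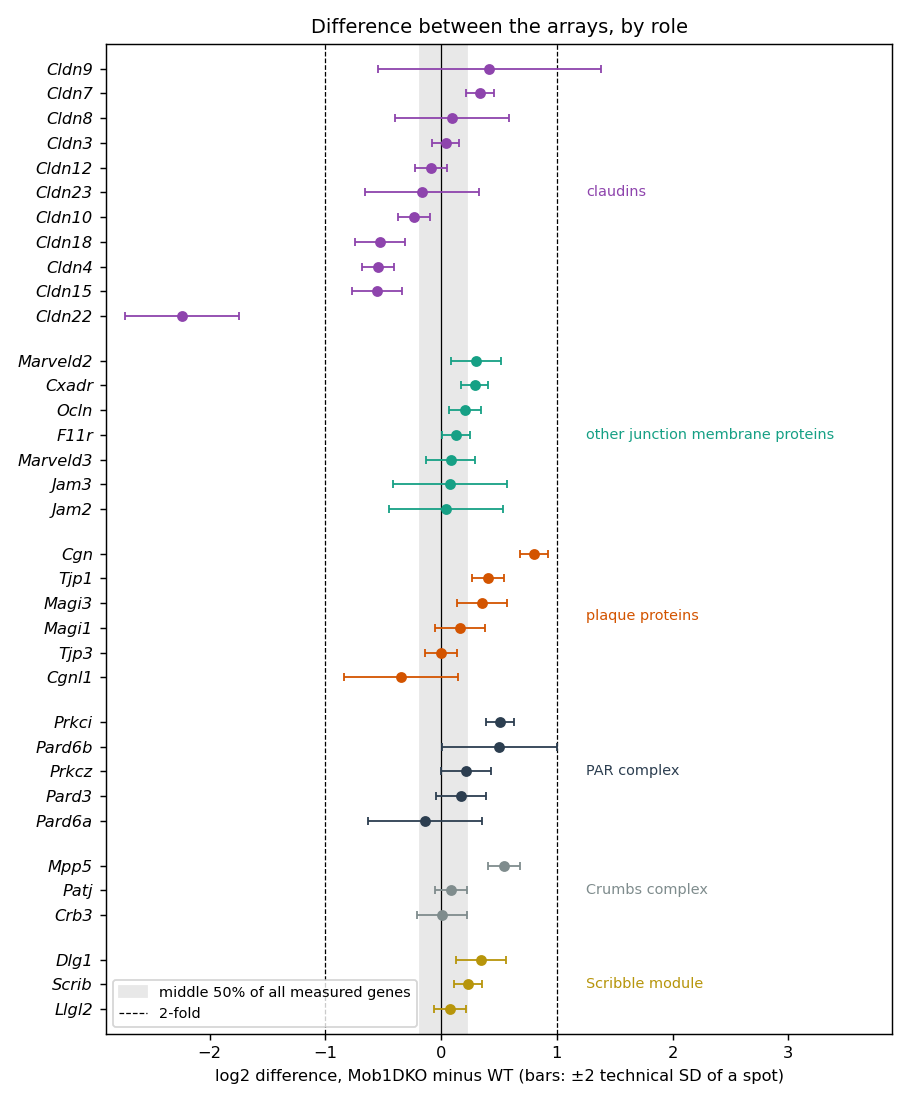
Log2 difference (Mob1DKO minus WT) of the 35 measured genes, grouped by role, with bars of 2 technical SD to each side, the middle 50% of all measured genes as a grey band and dashed lines at 2-fold. Cldn22 lies at -2.24, Cgn at 0.80, and the other 33 genes lie between -0.55 and 0.54.

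Cldn22, a little-studied claudin, was lower in Mob1DKO cells. Its level was -1.12 in Mob1DKO cells and 1.12 in WT cells, a difference of -2.24, or 4.73-fold lower, where the technical SD was 0.25. Its processed signal before scaling was 134 in Mob1DKO cells and 337 in WT cells. It was the only one of the 35 genes with a dimmer unscaled signal in Mob1DKO cells, although the Mob1DKO array was brighter overall. Among all measured genes, 0.95% had a difference this low or lower. The value rests on 1 probe at 1 spot per array, neither of which carried an outlier flag, and the local background was 67 in Mob1DKO cells and 66 in WT cells. Among protein-coding genes of chromosome 8 ordered by their start, Cldn22 comes between Cldn24 and Wwc2. Whether these genes overlap was not examined. Cldn24, the next claudin, was on neither array well above background, and Wwc2, a relative of the Hippo regulator Kibra, differed by 0.04.

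The next claudins in size were Cldn15, Cldn4 and Cldn18, all under 2-fold. Cldn15, which forms cation pores in the intestine, had a level of 1.15 in Mob1DKO cells and 1.71 in WT cells (difference -0.55). Cldn18, a defining claudin of alveolar cells, had 0.94 in Mob1DKO cells and 1.47 in WT cells (-0.53). Cldn15 and Cldn18 each rest on 1 probe at 1 spot per array. Cldn4, a sealing claudin that alveolar cells raise on injury, had 2.96 in Mob1DKO cells and 3.50 in WT cells (-0.54), and its second probe, at 2.50 in Mob1DKO cells and 2.75 in WT cells, differed by -0.25. Each of these 4 probes lay below 0 by over 2 technical SD, and 7.37% to 7.95% of all measured genes had a difference as low as these 3 genes or lower. Cldn10, a claudin of ion pores that is prominent in airway club cells, differed less, at 3.12 in Mob1DKO cells and 3.36 in WT cells (-0.24).

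The remaining claudins were near 0 or above it. Cldn3, a sealing claudin, had a level of 5.74 in Mob1DKO cells and 5.71 in WT cells (0.04). Under the normexp background correction described below, its difference was 0.34. Cldn7, which binds EpCAM at the lateral membrane, had 5.37 in Mob1DKO cells and 5.03 in WT cells (0.34), more than 2 technical SD above 0. Cldn9 had -2.42 in Mob1DKO cells and -2.84 in WT cells (0.42), inside 2 technical SD at a level where that SD is 0.48. Cldn8, Cldn12 and Cldn23 differed by 0.09, -0.09 and -0.16, each within 2 technical SD. Of the unmeasured claudins, Cldn2, a cation pore of leaky epithelia, had 2 probes, and the brighter gave a processed signal of 3.65 in Mob1DKO cells and 9.48 in WT cells, both too close to background for a fold. Cldn1, a barrier claudin best known from skin, and Cldn6, an embryonic claudin, gave 3 to 4 units on both arrays.

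Cldn3 and Cldn4 lie next to each other on chromosome 5, with no other protein-coding gene between them, and differed by 0.04 and -0.54. Cldn9 was measured while its neighbour Cldn6 was not. The tight junction neighbours Ocln and Marveld2 on chromosome 13 differed by 0.21 and 0.30. The 250 bases before the annotated start are shown for the claudin called lower and for this unequal pair, read 5′ to 3′ on the gene's strand from RefSeq on build GRCm38.p6, at chr8:47824232-47824481 on the plus strand for Cldn22, chr5:134946935-134947184 on the minus strand for Cldn4 and chr5:134985964-134986213 on the plus strand for Cldn3. Capitals mark matches to any of 3 motifs, searched on both strands: GGAATG of the TEAD partners of YAP, AACNNGTT of the grainyhead factors that act on junction genes in epithelia, and CAGGTG, the E-box bound by the SNAI and ZEB repressors. The Cldn4 window held 1 E-box, written CACCTG on this strand, with its first base at -14, and the Cldn22 and Cldn3 windows held none of the 3 motifs. The E-box was found for 12 of the 28 listed genes with a window and for 19.4% of all genes with one. Some genes have several windows, and counted by window the E-box was in 15 of 47, against 17.2% of all windows.
Cldn22: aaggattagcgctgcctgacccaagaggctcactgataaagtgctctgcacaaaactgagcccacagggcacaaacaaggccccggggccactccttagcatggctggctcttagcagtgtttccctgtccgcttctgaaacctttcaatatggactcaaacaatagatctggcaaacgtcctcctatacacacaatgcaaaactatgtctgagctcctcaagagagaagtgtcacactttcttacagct
Cldn4: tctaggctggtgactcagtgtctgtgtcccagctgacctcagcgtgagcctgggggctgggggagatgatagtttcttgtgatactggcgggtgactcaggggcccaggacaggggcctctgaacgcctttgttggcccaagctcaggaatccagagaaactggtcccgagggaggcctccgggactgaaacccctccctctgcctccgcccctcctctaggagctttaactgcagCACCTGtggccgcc
Cldn3: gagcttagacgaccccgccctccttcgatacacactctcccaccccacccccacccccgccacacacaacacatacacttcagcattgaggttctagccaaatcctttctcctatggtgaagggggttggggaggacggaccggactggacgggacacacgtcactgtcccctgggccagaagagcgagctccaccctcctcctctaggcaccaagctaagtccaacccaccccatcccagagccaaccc

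Beside these claudin values stand those of lung cell type markers, of which only the goblet list was called throughout. All 8 goblet cell markers were called lower, and their summed signal, in units of the array's 75th percentile, was 135 in Mob1DKO cells and 502 in WT cells. Of 6 basal cell markers Krt5, Krt15 and Krt17 were called lower and the other 3, Krt14, Trp63 and Ngfr, had differences of -0.55, -0.23 and 0.03. None of 4 measured club cell markers was called, with differences from -0.84 to 0.19, and none of 6 alveolar type 2 markers, with differences from -0.90 to 0.16. Their sums, carried by a few very bright probes, were 4409 for club cells and 3243 for alveolar type 2 cells in Mob1DKO cells, against 7171 and 4810 in WT cells. None of 5 measured alveolar type 1 markers was called, with differences from -0.18 to 0.43, and 4 of them lay above 0, where 53.3% of all measured genes did. The part of these markers in the claudin values was not tested.

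The other membrane proteins of the junction were all slightly above 0, and none was called. Their 7 differences ran from 0.04 to 0.30 with a median of 0.13. Marveld2 (tricellulin, which seals the corners where 3 cells meet) had a level of 0.84 in Mob1DKO cells and 0.54 in WT cells (0.30). Ocln, which encodes occludin, had 2.30 in Mob1DKO cells and 2.09 in WT cells (0.21), and a second Ocln probe differed by 0.05. F11r, the gene of the adhesion molecule JAM-A, had 5.37 in Mob1DKO cells and 5.25 in WT cells (0.13). These 3 genes and Cxadr lay more than 2 technical SD above 0.

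The value of Cxadr depended on the probe, and the rest of this group lay near 0. Cxadr, the Coxsackie and adenovirus receptor, differed by 0.29 on its brighter probe and by -0.01 on the dimmer one. Marveld3 differed by 0.08, Jam3 by 0.08 and Jam2 by 0.04, each within 2 technical SD. Jam2 is also an endothelial gene, and 5 of 8 endothelial markers were on neither array well above background. The 3 measured ones had a summed signal of 30.3 in Mob1DKO cells and 43.6 in WT cells, mostly that of Kdr, which differed by -0.60, while Esam differed by -0.15 and Pecam1 by 0.12. None was called.

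The highest difference of the 35 genes was that of Cgn in the plaque, and it stayed under 2-fold. Cgn encodes cingulin, which links ZO-1 to myosin and microtubules and holds back RhoA activators at the junction. Its level was 4.72 in Mob1DKO cells and 3.91 in WT cells, a difference of 0.80, or 1.75-fold higher, where the technical SD was 0.060. Among all measured genes 5.30% had a difference this high or higher. Under a threshold of 1.5-fold Cgn was the only one of the 35 genes past it upward and Cldn22 the only one downward, where 8.08% and 6.75% of all measured genes were. Cgnl1, the paralogue paracingulin, had a level of -1.69 in Mob1DKO cells and -1.34 in WT cells, a difference of -0.34, within 2 technical SD.

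The 250 bases before the start of Cgn are shown because of this difference (chr3:94786483-94786732, minus strand, GRCm38.p6, from RefSeq). They held 1 grainyhead match, AACAGGTT, in capitals, with its first base at -29. Cgn and Patj were the 2 of 28 listed genes with this motif, which 4.11% of all genes with a window held. Counted by window the motif was in 2 of 47, against 3.64% of all windows.
Cgn: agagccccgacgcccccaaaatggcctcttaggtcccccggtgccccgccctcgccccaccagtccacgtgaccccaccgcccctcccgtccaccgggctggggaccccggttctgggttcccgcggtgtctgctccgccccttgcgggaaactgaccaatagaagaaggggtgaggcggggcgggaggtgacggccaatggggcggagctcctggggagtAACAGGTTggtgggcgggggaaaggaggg

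Cingulin's partner Tjp1 (ZO-1), a scaffold that binds claudins, had a level of 3.0 in Mob1DKO cells and 2.59 in WT cells (0.40). Magi3, a scaffold with PDZ domains, had 2.10 in Mob1DKO cells and 1.75 in WT cells (0.36), with a second probe at 0.15. These lay more than 2 technical SD above 0, whereas Tjp3 (ZO-3) at 0.00 and Magi1 at 0.16 did not. The second, dimmer Magi1 probe differed by 0.48.

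No gene of the PAR complex was called, and Prkci and Pard6b had nearly equal differences. Prkci, which encodes aPKC iota, the kinase that marks the apical domain, had a level of 6.54 in Mob1DKO cells and 6.03 in WT cells, a difference of 0.51 (1.42-fold higher). Its paralogue Prkcz (aPKC zeta) differed by 0.21 on the brightest of 3 probes and by -0.11 on the dimmest. Pard6b, an adaptor of aPKC, had 0.03 in Mob1DKO cells and -0.47 in WT cells (0.50), and its paralogue Pard6a differed by -0.14. Pard3, the scaffold of the complex, differed by 0.17, with its 4 probes between -0.04 and 0.20. Prkci and Pard6b lay more than 2 technical SD above 0 and their paralogues did not. Pard6b, at 0.503 with an SD of 0.247, only just passed this bar. Prkcz, at 0.214 with an SD of 0.108, only just missed it. The differences between paralogues were not tested.

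Prkci's window (chr3:30995521-30995770, plus strand, GRCm38.p6, from RefSeq) is shown for one of these genes. It held 1 TEAD match, GGAATG, in capitals, with its first base at -44. Such a match was found for 5 of the 28 listed genes with a window and for 14.4% of all genes with one. Counted by window it was in 5 of 47, against 12.6% of all windows. Cldn15, at -0.55, also held such a match.
Prkci: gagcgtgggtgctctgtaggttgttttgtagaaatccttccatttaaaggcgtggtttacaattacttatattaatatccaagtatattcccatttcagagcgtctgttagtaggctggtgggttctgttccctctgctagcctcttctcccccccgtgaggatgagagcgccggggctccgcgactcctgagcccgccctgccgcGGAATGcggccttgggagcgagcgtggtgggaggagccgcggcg

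In the Crumbs complex, Mpp5 (PALS1, the adaptor between the apical protein Crumbs and PATJ) had a level of 3.32 in Mob1DKO cells and 2.78 in WT cells (0.54, 1.46-fold higher). Crb3, the epithelial Crumbs protein, differed by 0.01, and Patj by 0.08 on its brightest probe, with its 5 probes between -0.13 and 0.18. In the Scribble module, which keeps basolateral identity, Dlg1 had 0.43 in Mob1DKO cells and 0.08 in WT cells (0.34). Scrib had 4.27 in Mob1DKO cells and 4.04 in WT cells (0.23), and Llgl2 differed by 0.08. Mpp5, Dlg1 and Scrib lay more than 2 technical SD above 0, and none of the 6 genes was called.

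Several probes of a gene gave a check on these small values. Of 13 genes with 2 or more probes above background in both samples, 7 had all their probes on 1 side of 0. Over the array 1944 of 3406 such genes did, a similar share. The gap between a gene's lowest and highest probe had a median of 0.22 and reached 0.33 in Prkcz, against a median of 0.24 over 3406 such genes of the array. Cldn4, Dlg1, Jam2, Llgl2, Magi1, Magi3 and Ocln kept their side on both probes. The probes of Cxadr, Crb3, Marveld3, Pard3, Patj and Prkcz lay on both sides of 0.

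**Figure D3:**
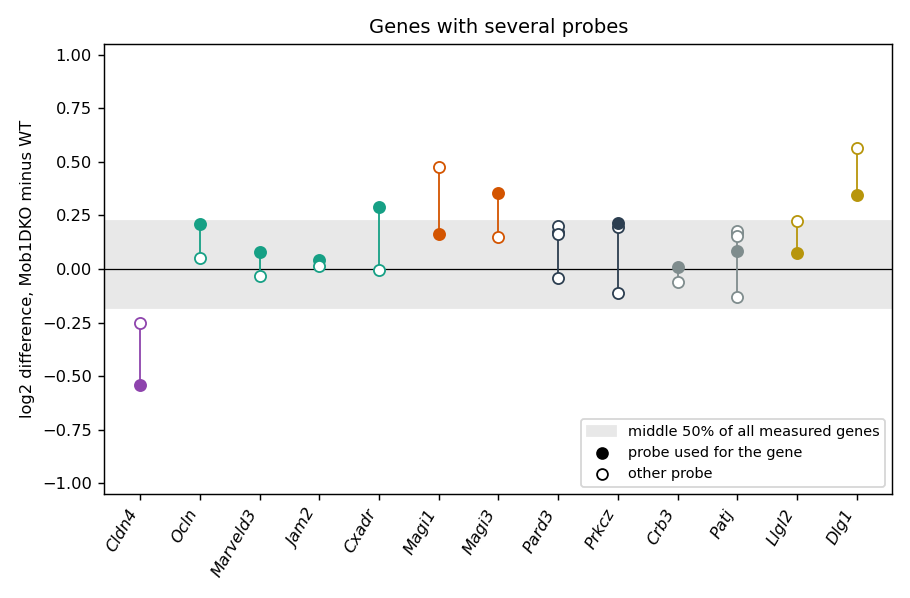
Log2 difference (Mob1DKO minus WT) of every probe that passed the background test on both arrays, for the 13 genes with 2 or more of them, with filled circles for the probe used and a grey band for the middle 50% of all measured genes. Both Cldn4 probes lie below 0, both Dlg1 probes above 0.25, and the widest spread is that of Prkcz at 0.33.

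The genes with the brightest probes all had differences above 0. Of the 7 genes with a mean level above 4, all had a difference above 0, with a median of 0.29, while the median of the 1479 measured genes of that brightness was -0.02. Of 9 genes with a mean level from 2 to 4 the median was 0.08, against 0.02 for all 2908 such genes. It was 0.17 for 10 genes from 0 to 2, against 0.03 for all 4050, and -0.05 for 8 genes from -2 to 0, against 0.02 for all 3512. The 1 gene below -2, Cldn9, had 0.42, against a median of 0.07 for all 3150.

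**Figure D4:**
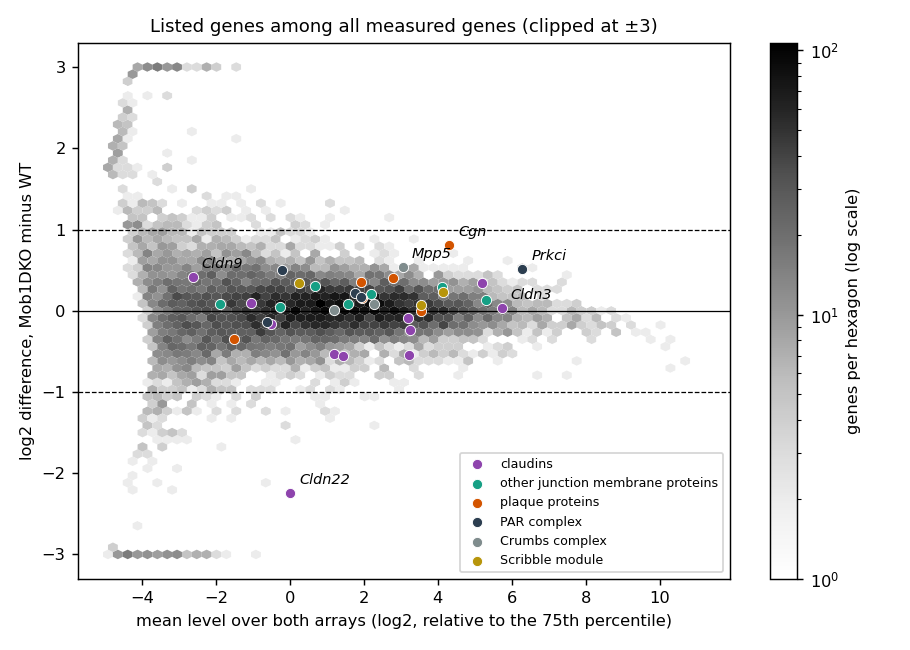
Log2 difference (Mob1DKO minus WT) against the mean level over both arrays for 15099 measured genes (grey hexagons) and the 35 genes described here (colours by role), with dashed lines at 2-fold. Cldn22 lies apart below the bulk at its level, Cgn and Prkci lie along the upper edge at theirs, and most others lie within the bulk.

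Of the other genes of the junction and of polarity, 1 was called. Of 15 further claudins and claudin-domain genes on the array, 11 were on neither array well above background, and the measured Cldn11, Cldn14, Cldnd1 and Cldnd2 differed by 0.52, -0.43, 0.06 and 0.61, none called, with 3 of the 4 above 0. None of 22 further membrane and plaque genes was called, with differences from -0.32 to 0.49, a median of 0.04 and 12 of 22 above 0. Of 17 measured further polarity genes 13 lay above 0, with differences from -0.18 to 1.29 and a median of 0.18. The 1 called higher was Lin7b, a small partner of PALS1, with a difference of 1.29, above that of each of the 35 genes. Its level was -3.33 in Mob1DKO cells and not well above background in WT cells, which makes it at least 1.09-fold higher. None of 13 partners and regulators of claudins was called, with a median of 0.01 and 7 of 13 above 0.

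How far each value depends on the processing was read from 11 other settings. Relative to the median of all genes, Cldn22 stayed between -2.29 and -1.75 and Cgn between 0.78 and 1.04, which passed 2-fold under the normexp background correction alone. Of the 11 measured claudins 7 lay below that median under every setting that measured the same claudins except normexp, where 9 did. Of the 24 genes that are not claudins, 20 lay above it under most settings. The count was 19 under loess, 21 under normexp and 22 with no background filter.

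**Figure D5:**
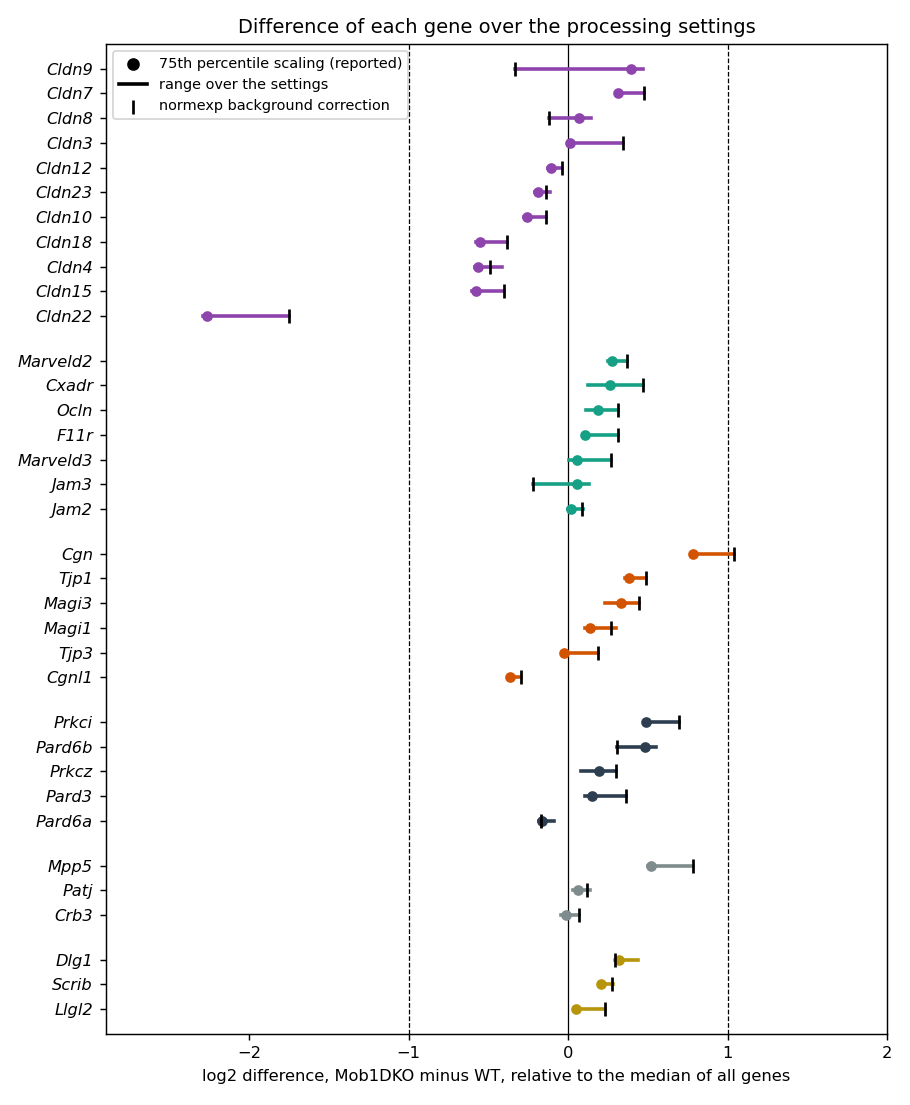
Log2 difference (Mob1DKO minus WT) of each of the 35 genes relative to the median of all genes, with a circle for the reported scaling, a line for the range over the settings and a tick for the normexp background correction. Cldn22 stays more than 2-fold lower throughout, Cgn reaches 1.04, and Cldn9 runs from -0.33 to 0.47.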

How the data were processed

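Total RNA was labelled with Cy3 per the labels. The deposited scanner files hold intensity values per spot, extracted with Agilent Feature Extraction 10.7.1.1 on a grid of build mm9 per the file headers, while version 9.5.1.1 stands in the submitters' processing notes. Their processed signal, per the file headers an intensity, is background-subtracted and detrended per array and not scaled between arrays. The origin of the deposited series value table, whose 2 columns of intensity have nearly the same sorted values, is not stated.

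Control spots were dropped, spots of a probe were averaged, and log2 of the signal had each array's 75th percentile over 55681 probes subtracted (Python 3.11.15, pandas 2.3.3). RefSeq accessions named 27235 probes, with symbols of assembly GRCm38.p6. The scanner files used here have no gene name column. A gene with several probes took the brightest that passed the background test on either array. Of all probes 58.6% passed for Mob1DKO and 53.1% for WT, with 0 saturated spots. On an unscaled basis the median gene was 0.93 higher on the Mob1DKO array, while 8 added spike-in transcripts had a median difference of -1.32, so nothing is said about RNA per cell. The calling rule was tested on simulated data.

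All 38 genes are named, and of the other junction and polarity lists every called gene; the measured further claudins and the neighbours of Cldn22 were named after their values were seen. The genes and lists were chosen with earlier results of these data known. Alternatives were scaling on the median, by quantiles, by loess (span 0.3, added after seeing the data) or not at all, normexp with an offset of 50 (limma 3.58.1), the value table, other background filters, outlier spots left out, the mean of probes and a 1.5-fold threshold.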

Additional observations from a re-analysis of the deposited data

How the results depend on the processing

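Cldn22 was called lower under all 11 alternatives, with a difference relative to the median of all genes of -2.29 to -1.75. Several of the 11 could not change this call, as Cldn22 has 1 unflagged spot of 1 probe, above background on both arrays. These are the background filters, outlier spots left out, the mean of probes and the 1.5-fold threshold. The value table gave nearly the same difference as quantile scaling, -2.24 under each. Without scaling, 18 genes were called higher and the median of the list was 1.0, since the median of all genes was then 0.93. Under normexp, Cgn was called higher (1 gene) and the median was 0.27. Without a background filter 2 genes were lower, Cldn22 and the faint Cldn2. At 1.5-fold 1 gene, Cgn, was higher. Over all genes, normexp called 99 higher and 172 lower, a filter on both arrays 174 and 198, and no filter 807 and 1208, against 572 and 439 as reported; loess, chosen after seeing the data, called 719 and 369. Relative to the median of all genes, 20 of the 35 genes lay above 0 and 9 below it under every setting, while the other 6, among them Cldn8, Cldn9 and Jam3 (below it under normexp), lay on both sides. Of 350 values of single genes under the alternatives, 283 moved by less than the technical SD and 67 by more. The called gene kept its sign. Many of the 283 were fixed in advance and do not measure stability. The background filters leave each value as it is, and the mean of probes does so for genes with 1 probe. Median scaling and outlier spots left out each shifted all listed genes by the same small amount. The 67 include all 35 genes without scaling, where every gene shifted by 0.91, and most of the others came under normexp. Naming by a gene name column was not run, because the scanner files used here have none, and normexp used the median spot signal because they hold no mean. No paired analysis was possible because each group has 1 array. The values of the faint Cldn9 and Jam3 depend on the background correction, and both changed sign under normexp. Some bright genes also moved by more than the technical SD there. Cldn3 went from 0.04 to 0.34, F11r from 0.13 to 0.31 and Prkci from 0.51 to 0.69, whereas Cldn4 and Scrib did not move beyond it.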

Other observations

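Promoter windows of 250 bases were in the RefSeq table for 28 of the 38 genes, some with several starts. The 5 listed genes holding the TEAD motif GGAATG had differences of both signs, with Prkci at 0.51, Cldn7 at 0.34, Crb3 at 0.01 and Cldn15 at -0.55, while Cldn2 was not measured. Of the 12 holding the E-box CAGGTG, Cldn6 was not measured, and Cldn4, at -0.54, was the only measured one below 0. The others ran from 0.00 in Tjp3 to 0.50 in Pard6b. Of all 35 measured genes of the list, 26 lay above 0. GC content, averaged over the windows of each of the 28 genes, had a median of 58.3%. Over all single windows, without averaging by gene, the median was 52.4%. A match is a run of letters and not a shown binding site.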
